A study of Mus musculus with 6 samples.

Results

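The genes followed here encode 8 proteins of the red cell membrane and of the spectrin skeleton beneath it, namely Tmod1, Sptb, Ank1, Slc4a1, Epb41, Epb42, Rhag and Rhd. They were chosen by name, with earlier results of these data known, and were read through every probe whose accession maps to one of them, which gave 16 of 41174 probes. All 8 genes had at least 1 probe that could be tested, among 18211 genes tested in all. The cells were primary megakaryocytes, the precursors of platelets, cultured from mouse fetal livers at E13.5, on the C57BL/6 strain in both groups. The p45-/- group (3 arrays) carried the knockout of p45 (gene Nfe2), the haematopoietic subunit of NF-E2, a factor that megakaryocytes need to release platelets, and the WT group (3 arrays) was wild type. The source field was followed here, although the extraction protocol in the labels speaks of RNA from whole embryos. Whether livers were pooled, and how pure the cultures were, is not given in the sources used here.

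The red cell keeps its shape and deformability through a net of spectrin tetramers under the lipid bilayer. Ankyrin, with protein 4.2, ties the net to the anion exchanger band 3, while protein 4.1 and short actin filaments, capped by tropomodulin, form the nodes where spectrin ends meet. The Rh proteins sit in the membrane with band 3 in one large complex. Inherited defects of spectrin, ankyrin, band 3 and protein 4.2 cause hereditary spherocytosis, and these genes are switched on strongly as erythroblasts mature. Megakaryocytes and erythroblasts descend from a shared progenitor, and megakaryocytes carry a spectrin skeleton of their own that is used in proplatelet formation.

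The promoter windows of the 4 genes with the largest group differences over all 6 arrays are shown because their levels differed in the same direction on the arrays. RefSeq windows of 300 bases, from 250 before to 50 after an annotated start on GRCm38.p6, were held for 6 of the 8 genes, in 8 windows, since Epb41 had several starts. Those printed are chr4:134864286-134864585 on the plus strand for Rhd, chr17:40810899-40811198 on the plus strand for Rhag, chr4:46038972-46039271 on the plus strand for Tmod1 and chr2:121036828-121037127 on the minus strand for Epb42. Each reads 5′ to 3′ along the gene, and capitals mark matches on either strand to AGATAA or TGATAA, the letters bound by GATA factors, or to CCNCNCCC, a pattern of KLF factors.
Rhd: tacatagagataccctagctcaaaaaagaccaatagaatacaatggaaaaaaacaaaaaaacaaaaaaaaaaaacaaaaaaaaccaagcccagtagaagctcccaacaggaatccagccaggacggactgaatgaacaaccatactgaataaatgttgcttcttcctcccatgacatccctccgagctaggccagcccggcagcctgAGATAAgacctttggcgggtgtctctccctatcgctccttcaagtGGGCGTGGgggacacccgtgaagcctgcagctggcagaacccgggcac
Rhag: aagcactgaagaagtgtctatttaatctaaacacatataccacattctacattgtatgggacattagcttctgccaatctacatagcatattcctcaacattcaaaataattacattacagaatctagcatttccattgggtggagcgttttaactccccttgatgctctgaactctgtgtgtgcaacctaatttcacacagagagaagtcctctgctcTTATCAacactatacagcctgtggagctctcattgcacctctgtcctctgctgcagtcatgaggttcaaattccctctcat
Tmod1: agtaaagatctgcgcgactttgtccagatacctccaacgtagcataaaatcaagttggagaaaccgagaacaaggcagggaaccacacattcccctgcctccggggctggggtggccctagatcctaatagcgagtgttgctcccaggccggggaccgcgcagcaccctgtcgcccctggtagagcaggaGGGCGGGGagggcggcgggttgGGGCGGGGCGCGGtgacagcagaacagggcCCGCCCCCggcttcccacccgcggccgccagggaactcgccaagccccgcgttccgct
Epb42: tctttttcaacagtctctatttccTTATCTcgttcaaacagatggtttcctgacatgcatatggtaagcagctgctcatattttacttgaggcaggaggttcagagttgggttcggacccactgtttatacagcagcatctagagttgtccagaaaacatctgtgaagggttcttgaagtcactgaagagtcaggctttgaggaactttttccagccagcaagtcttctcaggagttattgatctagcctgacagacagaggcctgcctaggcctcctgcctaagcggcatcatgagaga
AGATAA was found in the Rhd window at bases -43 to -38 from the start and in the Epb42 window, on the reverse strand, at -226 to -221. TGATAA was found in the Rhag window, on the reverse strand, at -31 to -26. The Tmod1 window held neither but had 4 matches to CCNCNCCC, of which 2 overlap each other, and Rhd had 1. Of all 32851 windows of this length, 11.2% hold AGATAA, 9.05% TGATAA and 49.5% CCNCNCCC. In the same order, these patterns were found in 2, 1 and 5 of the 8 member windows. Matches in the Sptb and Epb41 windows, which are not printed, were all to the KLF pattern. TGACTCA, the core shared by NF-E2 and AP-1 sites, was in 0 of the 8 member windows and in 5.20% of all windows. These matches describe letters in a short window and say nothing of whether a factor binds.

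Levels are given as log2 of the processed signal minus the array's 75th percentile over probes, so that 0 is the brightness of the probe at that percentile, and differences are p45-/- minus WT. The level of one probe cannot be set against that of another. Before scaling, the 75th percentile was 135, 407 and 589 on p45-/- replicates 1, 2 and 3, and 339, 583 and 575 on WT replicates 1, 2 and 3. p45-/- replicate 1 stood apart, with correlations across genes of 0.782 to 0.884 with the other arrays, which correlated at 0.941 to 0.984 among themselves. Nfe2 read 4.87, 6.43 and 6.34 on the p45-/- arrays, against 5.24, 6.57 and 6.33 on the WT arrays (adjusted p = 0.923). No source used here places its 1 probe inside or outside the deleted stretch, and the genotype labels could not be checked with it. Nothing in the labels says that the 3 samples of a group came from separate animals, so the p-values measure the spread between these samples.

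All 8 members were higher on average in p45-/- cultures than in WT cultures (7 under median scaling, where Epb41 was lower), with differences of 0.14 to 2.55 and a median of 1.76. None of the 8 passed the test. Over all genes tested 46.5% were higher and the median was -0.048. The limma adjusted p of the members was 0.251 for Tmod1 and 0.704 or above for the other 7. Over all 18211 genes 0 (0%) passed this test, with 0.0877 as the smallest adjusted p. Tested probe by probe, 0 of 13 member probes and 0 of 23958 probes (0%) passed. At an unadjusted p under 0.05, 3 of the 8 were higher, Tmod1, Rhd and Epb42, against 2.62% of all genes, and 0 were lower, against 3.33%. For the same 3 genes every p45-/- array lay above every WT array, which held for 4.77% of all genes, and 0 members had the reverse, against 8.43%. Group means were at least 4-fold higher for Tmod1, Rhag and Rhd, against 4.34% of genes, and at least 2-fold higher for 6 of the 8, against 14.6%. An exact two-sided permutation test over the arrays gave p = 0.1, the smallest that 3 arrays against 3 allow, for Tmod1, Epb42 and Rhd, and p = 0.3 to 0.9 for the others. Epb42 and Rhag, included in these counts, were well above background on 3 p45-/- arrays but only 2 WT arrays. They were thus tested only through the group in which they were higher. The 6 members above background on all 6 arrays were all higher, with a median of 1.52, against -0.094 for all genes so filtered.

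**Figure D1:**
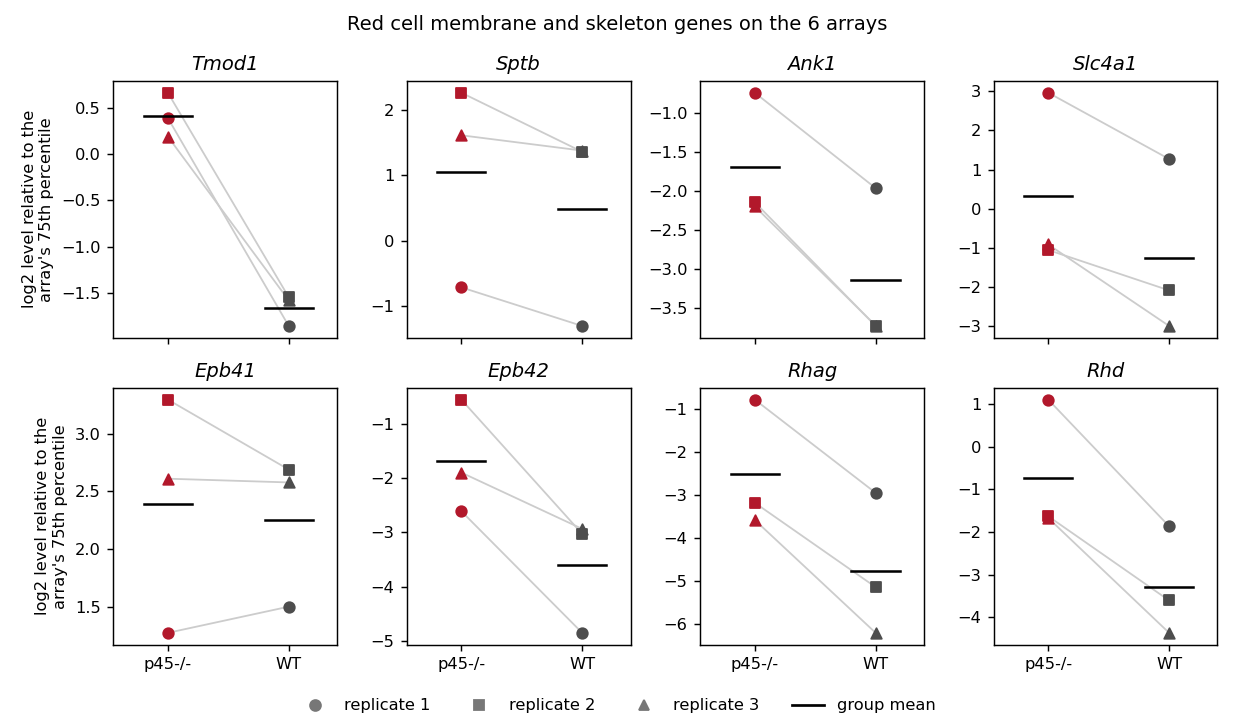
Log2 level of each member relative to the array's 75th percentile (vertical axes differ between genes) in p45-/- and WT cultures, 3 arrays each. Symbols give the replicate number, grey lines join equal numbers and black bars are group means. All Tmod1 points of p45-/- cultures lie at 0.19 or above and all of WT cultures at -1.55 or below, while Slc4a1, Sptb and Epb41 are spread more within a group than between groups.

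Deviations from the group means correlated between arrays of the same replicate number, at 0.647, 0.589 and 0.270 for numbers 1, 2 and 3. This was taken as pairing, from the same data the block was then fitted to. The pairing of number 3 was weak, as p45-/- replicate 3 correlated more with WT replicate 2 (0.616). With the replicate number as a block, 5 of 18211 genes (0.0275%) passed and 0 of these were members, whose smallest adjusted p was 0.0674, for Rhd. Of the 13 member probes 0 passed with the block, against 0.305% of all probes. At an unadjusted p under 0.05 the blocked fit had 6 of the 8 members higher, all but Sptb and Epb41, against 14.3% of all genes, and 0 lower, against 5.96%. Of the 8 members, 7 were higher on the p45-/- array of all 3 numbers, against 23.3% of all genes. The exception was Epb41, with a difference of -0.23 for number 1. The members' median difference was 1.93, 1.77 and 1.65 for numbers 1, 2 and 3, while that of all genes was -0.37, 0.12 and 0.064.

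Among the skeleton proteins, Tmod1 stood out for how little it varied. Tmod1 encodes tropomodulin 1, which caps the slow-growing ends of the short actin filaments of the red cell skeleton. Its processed signal before scaling was 177, 644 and 671 on p45-/- replicates 1, 2 and 3, against 93.6, 200 and 192 on WT replicates 1, 2 and 3. After scaling it read 0.39, 0.66 and 0.19 in p45-/- cultures, against -1.86, -1.55 and -1.58 in WT cultures. All p45-/- values lay above 0 and all WT values below -1.5, so the groups did not overlap. The means were 0.41 ± 0.24 and -1.66 ± 0.17 (SD, n = 3 each), a difference of 2.07 (SE 0.28, 95% interval 1.39 to 2.75) or 4.21-fold. By unadjusted p, Tmod1 ranked 16 among all genes tested.

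Sptb, the erythroid beta spectrin chain, was read by 3 probes that gave the same small difference. The probe used for the gene read -0.71, 2.26 and 1.61 in p45-/- cultures, against -1.30, 1.36 and 1.38 in WT cultures. Replicate 1 was the low array in both groups, and the groups overlapped. The means were 1.06 ± 1.56 and 0.48 ± 1.54 (SD, n = 3 each), so that the difference of 0.58 (SE 1.02, 95% interval -1.87 to 3.02) lay within the spread of the arrays. The other probes gave 0.52 and 0.56. By replicate number the gene's differences were 0.59, 0.90 and 0.23. The sign of the difference of group means turned to -0.029 without p45-/- replicate 2 and to -0.31 without WT replicate 1. It was 1.46 without p45-/- replicate 1. Each of these drops leaves 1 replicate number in 1 group only.

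Epb41, protein 4.1R, which strengthens the bond of spectrin to actin, differed least of the members. It read 1.28, 3.30 and 2.61 in p45-/- cultures, against 1.50, 2.69 and 2.58 in WT cultures. The values interleave, with replicate 1 lowest in both groups. The difference was 0.14 (SE 0.60, 95% interval -1.31 to 1.58), and the second probe gave 0.21. Scaling each array by its median instead gave Epb41 -0.37 and all genes a median of -0.56. Without p45-/- replicate 1 Epb41 was at 0.70, and without p45-/- replicate 2 it was at -0.31.

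Ankyrin 1, encoded by Ank1, links beta spectrin to band 3. It had 5 probes, of which 2 were well above background on every array and 3 were too dim to test. The brighter of the tested probes read -0.74, -2.14 and -2.20 in p45-/- cultures, against -1.96, -3.73 and -3.72 in WT cultures. Replicate 1 was the high array in both groups, and only WT replicate 1 reached into the range of the p45-/- arrays. The difference was 1.44 (SE 0.64, 95% interval -0.093 to 2.98, adjusted p = 0.704), and the other tested probe gave 1.45. Among the 3 dim probes, 1 was well above background on p45-/- replicate 1 and on no other array, and the other two on none.

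Before scaling, the pair with number 1 did not differ in this way. The processed signal of the Ank1 probe was 81.0 on p45-/- replicate 1 and 87.0 on WT replicate 1, so that its scaled difference of 1.22 came with the lower 75th percentile of the p45-/- array. For numbers 2 and 3 the signals were 92.1 and 128 in p45-/- cultures, against 44.0 and 43.5 in WT cultures. Leaving out replicate 1 of both groups gave Ank1 a difference of 1.56 and the 8 members a median of 1.66, all 8 higher.

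Slc4a1 encodes band 3, the chloride and bicarbonate exchanger that is the chief anchor of the skeleton. It read 2.96, -1.05 and -0.91 in p45-/- cultures, against 1.27, -2.08 and -2.99 in WT cultures. The replicate 1 arrays stood far above the rest in both groups, and WT replicate 1 lay above p45-/- replicates 2 and 3. The difference of 1.60 (SE 1.46, 95% interval -1.90 to 5.10, adjusted p = 0.730) was smaller than the SD of either group, 2.28 in p45-/- and 2.24 in WT. By replicate number the differences were 1.69, 1.03 and 2.08. The difference was 0.29 without p45-/- replicate 1, 0.74 without WT replicate 3 and 2.87 without WT replicate 1.

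Epb42, protein 4.2, binds band 3 and ankyrin and is a transglutaminase relative without enzyme activity. The probe used for the gene read -2.61, -0.54 and -1.89 in p45-/- cultures, against -4.86, -3.02 and -2.93 in WT cultures. Every p45-/- value lay above every WT value, and on WT replicate 1 neither of its probes was well above background. The means were -1.68 ± 1.05 and -3.60 ± 1.09 (SD, n = 3 each), a difference of 1.93 (SE 0.72, 95% interval 0.19 to 3.66, adjusted p = 0.704). The second probe gave 1.99.

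The Rh pair had the largest differences over all 6 arrays, but not without p45-/- replicate 1, where Epb42 was at 2.39 and Tmod1 at 2.09, against 1.63 for Rhd and 1.39 for Rhag. Without replicate 1 of both groups the Rh pair was again the largest, with Rhd at 2.34 and Rhag at 2.30. Tmod1 was then at 1.99 and Epb42 at 1.76. With normexp background correction Tmod1 was at 1.65 and Epb42 at 1.35, against 1.57 for Rhd and 0.998 for Rhag. Under quantile normalization Tmod1, at 2.02, lay above Rhag, at 1.84. Rhag encodes the Rh-associated glycoprotein, a relative of ammonium transporters that the Rh complex needs to reach the surface. It read -0.77, -3.17 and -3.57 in p45-/- cultures, against -2.94, -5.14 and -6.20 in WT cultures. WT replicate 1 lay above p45-/- replicates 2 and 3, and on WT replicate 3 the probe was not well above background. The difference was 2.26 (SE 1.04, 95% interval -0.25 to 4.76, adjusted p = 0.704), and by replicate number it was 2.17, 1.97 and 2.63.

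Rhd encodes the Rh blood group polypeptide of the same complex, of which the mouse has 1 gene. It read 1.11, -1.63 and -1.67 in p45-/- cultures, against -1.86, -3.61 and -4.37 in WT cultures. The groups did not overlap, though the lowest p45-/- value and the highest WT value were close. The means were -0.73 ± 1.59 and -3.28 ± 1.28 (SD, n = 3 each), a difference of 2.55 (SE 0.95, 95% interval 0.26 to 4.84, adjusted p = 0.704) or 5.85-fold.

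**Figure D2:**
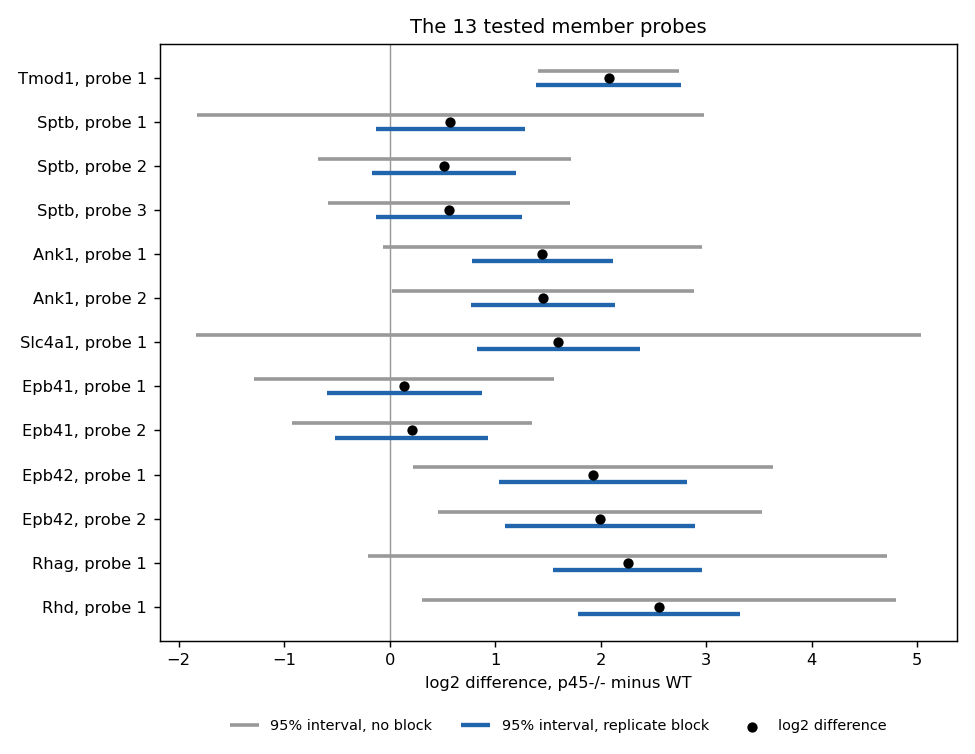
Log2 difference, p45-/- minus WT, of the 13 tested member probes, with 95% intervals of the fit without a block (grey) and with the replicate number as a block (blue). The 3 Sptb probes lie between 0.52 and 0.58, and the blocked intervals of all probes but those of Sptb and Epb41 lie above 0. The block was chosen from these same data.

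The members parted in how they varied between replicates, and in the same way in both groups. Replicate 1 lay above the mean of replicates 2 and 3 for Slc4a1, by 3.94 in p45-/- and 3.80 in WT cultures. The same held for Rhag (2.60 and 2.73), Rhd (2.76 and 2.12) and Ank1 (1.43 and 1.76). It lay below that mean for Sptb (-2.65 and -2.67), Epb41 (-1.68 and -1.13) and Epb42 (-1.39 and -1.88). Tmod1 was nearly level, at -0.037 and -0.29. The cause of this split was not tested. Replicate 1 had the lowest 75th percentile in each group, and it shared a slide and scan with replicate 2, while replicate 3 of both groups lay on the other slide. Within the slide of replicates 1 and 2 the members' median difference was 1.74, and it was 1.65 on the other slide, with all 8 higher in each.

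**Figure D3:**
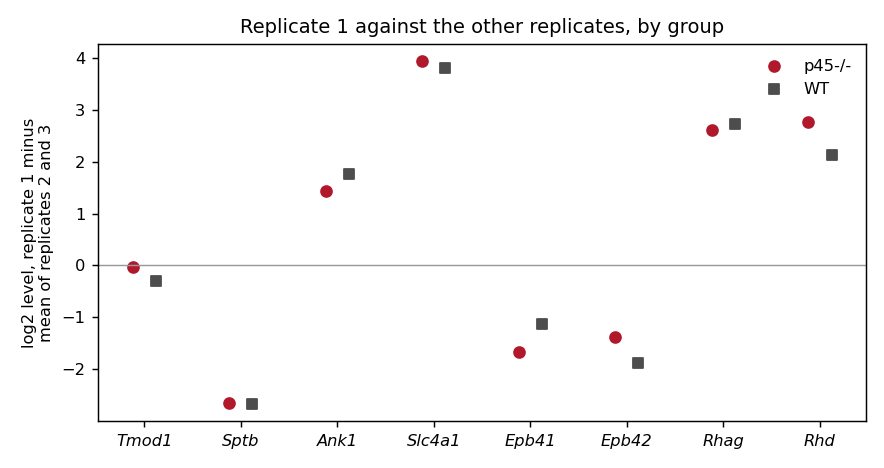
Log2 level of replicate 1 minus the mean of replicates 2 and 3, for each member, in p45-/- (red circles) and WT (grey squares) cultures. Slc4a1, Rhag, Rhd and Ank1 lie above 0 in both groups and Sptb, Epb41 and Epb42 below 0 in both, with Tmod1 near 0.

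The partners of the members did not all lean the same way. Of 40 other tested genes of the red cell membrane and skeleton, 18 were higher and 22 lower in p45-/- cultures (10 and 30 under median scaling), with a median of -0.31, and 0 passed the test. At an unadjusted p under 0.05, 4 were higher and 3 lower. Add2, the beta adducin subunit that caps the fast-growing ends of the actin filaments, was well above background on all p45-/- arrays and on 0 WT arrays, and was at least 3.41-fold higher (adjusted p = 0.331). Stom, the membrane protein stomatin, was at -1.24 (SE 0.27, adjusted p = 0.438), with every p45-/- value below every WT value.

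The genes Dmtn, Ermap, Add1 and Add3 were picked after their values were seen. Dmtn, the actin bundling protein dematin, was at 2.09 (SE 0.53, adjusted p = 0.515), with 1.96 to 2.18 by replicate number. Ermap, an erythroblast membrane protein, was at 2.38 (SE 0.76, adjusted p = 0.704), though its probe was too dim to be measured well on 1 WT array. The adducin genes Add1 and Add3, which are widely expressed, were at -0.37 and -0.77.

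Paralogues of the members used outside the red cell were mostly higher too, by less than the members and not under median scaling. Of 12 tested, 9 were higher, with a median of 0.46, and 0 passed the test. With quantile normalization 9 were higher, and 8 with normexp. Under median scaling 6 were higher and the median was -0.053, where that of all genes was -0.56. Tmod2, the neuronal tropomodulin, read 1.42, -2.97 and -2.11 in p45-/- cultures, against -2.66, -5.68 and -3.66 in WT cultures (difference 2.78, SE 1.28, adjusted p = 0.704). Tmod3, the widely expressed tropomodulin, which the list of partners holds, was at -1.01 (SE 0.74, adjusted p = 0.704), the direction opposite to Tmod1. Of the protein 4.1 relatives, Epb41l4a was at 0.57, Epb41l4b at 0.61 and Epb41l5 at 1.53 (0.47 without p45-/- replicate 1), each with non-overlapping groups. For Epb41l2, at -0.24, and Epb41l3, at 0.35, the groups overlapped. Non-overlap with p45-/- higher held for 3 of the 12 paralogues, against 4.77% of all genes. Sptbn1, the beta spectrin of most other cells, was at -0.74, the ankyrin gene Ank3 at 0.41, and the anion exchanger gene Slc4a2 at 0.13. Ank3 and Slc4a2 were at -0.11 and -0.38 under median scaling.

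**Figure D4:**
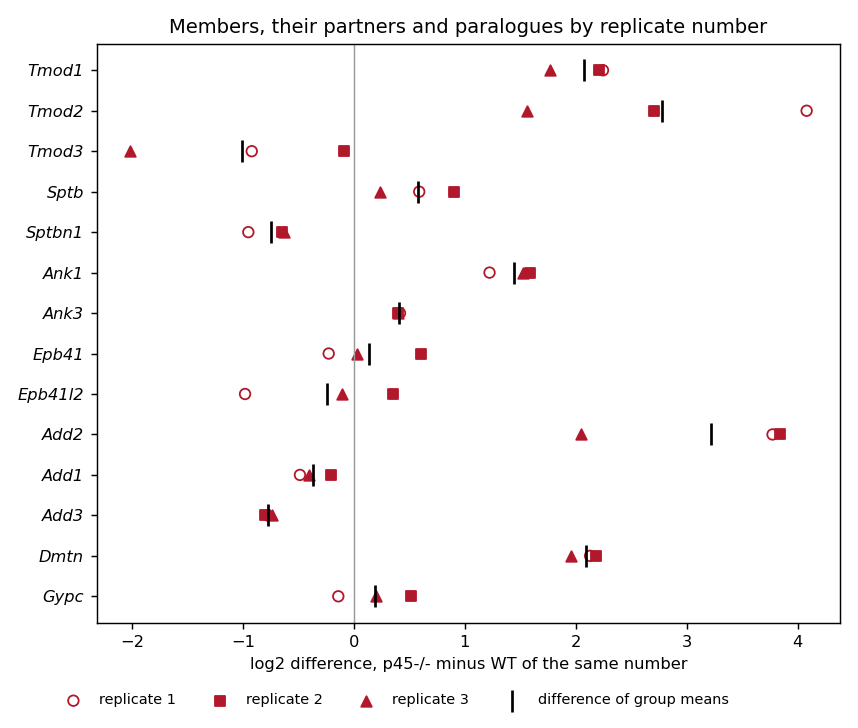
Log2 difference of p45-/- minus WT for arrays of the same replicate number (symbols) and of the group means (black bars), for members, their partners and their paralogues. Tmod1, Tmod2, Ank1, Add2 and Dmtn lie above 1 at all 3 numbers, while Tmod3, Sptbn1, Add1 and Add3 lie below 0 at all 3. The WT values behind Add2 were not well above background.

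Most other erythroid genes tested were higher beside the members. The 24 tested erythroid markers outside the lists of red cell membrane and skeleton genes were all well above background on every array. Some, such as the receptors Epor and Tfrc, are membrane proteins. Of these 24, 20 were higher in p45-/- cultures (15 under median scaling), with a median of 0.75, and 0 passed. Without replicate 1 of both groups, 20 were higher, with a median of 0.67. Their summed scaled signal was 756 to 2382 on p45-/- arrays and 611 to 1000 on WT arrays. This sum was highest on replicate 1 in both groups, where the globin genes Hba-a1 and Hbb-bt, which have near-identical copies, at 9.81 and 10.22 on p45-/- replicate 1, made up most of it. The median level of the list went the other way: it was lowest on replicate 1, at 2.00, 2.99 and 2.47 on p45-/- replicates 1, 2 and 3, against 1.35, 1.99 and 1.92 on WT replicates 1, 2 and 3. Among them Trim10, an erythroid tripartite motif gene, was at 3.22 (SE 0.47, adjusted p = 0.278), Klf1, the master regulator of red cell genes, at 2.32 (SE 0.54, adjusted p = 0.475) and Alas2, the erythroid starter of haem synthesis, at 4.36 (SE 1.08, adjusted p = 0.505). The 4 lower markers were Blvrb at -0.75, Gfi1b at -0.62, Hemgn at -0.39 and Epor at -0.20. The part of erythroid cells or their RNA in the members' differences was not tested. In these bulk cultures more cells of a type and more RNA per cell cannot be told apart.

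Markers of other cells gave medians on both sides of 0, and 0 genes of these lists passed. The 18 megakaryocyte and platelet markers, all well above background on every array, had a median of -0.58 with 16 lower, led by the platelet surface proteins Gp6 at -6.09, Clec1b at -4.53 and Selp at -2.83. With the replicate number as a block, Gp6 (adjusted p = 0.0167) and Clec1b (adjusted p = 0.0454) passed. The median of all 18 markers was 0.015 without p45-/- replicate 1, with 10 higher and 8 lower. Without replicate 1 of both groups it was -0.47, with 16 lower. Hepatoblast and hepatocyte markers had a median of 0.94 with 11 of 11 tested higher (10 under median scaling), among them the apolipoproteins Apob at 1.19, Apoh at 1.27 and Apoa1 at 1.23, and their summed signal was 54.6 to 190 on p45-/- arrays and 43.4 to 74.2 on WT arrays. Their median was -0.17 for number 1, and 1.75 without replicate 1 of both groups. Macrophage markers had a median of 0.16 (-0.35 under median scaling), 5 of 10 higher and 5 lower, and without replicate 1 of both groups 10 of 10 were higher with a median of 0.65. The 3 named by the rule were all higher, with Cd5l at 1.31, Vcam1, an adhesion molecule of erythroblast islands, at 1.10 and Mrc1 at 0.70. Neutrophil and mast cell markers had a median of -0.79 with 11 of 14 lower. Among the lower were the neutrophil granule enzymes Ctsg at -1.26, Elane at -1.23 and Mpo at -0.81. The 3 higher were mast cell genes, Cma1 at 0.52, Tpsb2 at 0.66 and Fcer1a at 0.78. The mast cell genes Cpa3 and Ms4a2 were at -1.16 and -0.94. Tpsb2 and Ms4a2 were not well above background on every array. Without replicate 1 of both groups 13 of the 14 were lower. Stromal markers had a median of 0.52 with 9 of 10 higher (0.0098 and 5 of 10 under median scaling, 1.28 without replicate 1 of both groups), with Fbn1 at 0.98, Postn at 0.98 and Acta2 at -0.81. Their part in the members' differences was not tested.

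**Figure D5:**
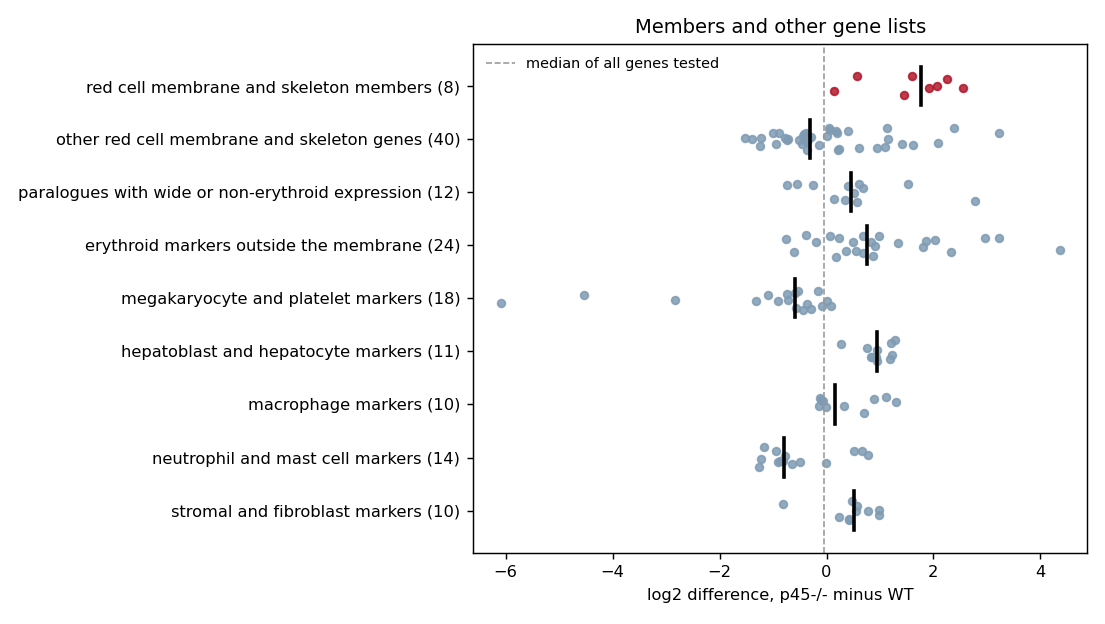
Log2 difference, p45-/- minus WT, of each tested gene (points) in the members (red) and 8 other lists (blue), with the number tested in brackets. Black bars are list medians, from -0.79 to 1.76, and the dashed line is the median of all genes tested at -0.048. For the erythroid markers, outside the membrane means outside the lists of red cell membrane and skeleton genes.

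The genes whose pattern was most like the mean of the members, by Pearson correlation over the 6 arrays among 12942 genes with a symbol, were Shc3 (0.993), Rnf208 (0.992), Klc3 (0.992), Cachd1 (0.989) and Slc16a9 (0.989). Genes and members share the arrays, their scaling and the group difference, so these values only describe likeness. All 5 had non-overlapping groups with p45-/- higher, as did 4.77% of all genes. The members' mean itself did not overlap between groups, so picking genes like it favoured this outcome. Their differences were 1.10 (Rnf208), 1.24 (Slc16a9), 1.56 (Shc3), 1.75 (Klc3) and 2.12 (Cachd1), with limma adjusted p of 0.331 to 0.678.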

How the data were processed

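Cy3-labelled RNA was hybridised to single-colour Agilent arrays, per the labels' protocols. The deposited intensity per spot is Agilent's processed signal, background-subtracted and detrended by Feature Extraction 10.7.3.1 per the file headers (10.1 in the submitters' processing notes). The series' value table, linear and uncentred, held these intensities within 0.497%, with column medians of 20.9 to 42.0.

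From the deposited intensities, control spots were dropped, outlier spots (32 to 80 per array) set to missing, log2 values averaged per probe, and each array's 75th percentile subtracted. A probe was tested if all arrays of either group read it well above background (23958 probes), and a gene took its brightest probe. RefSeq accessions of GRCm38.p6 named 26690 probes. Groups were compared with limma 3.58.1 in R 4.3.3 (lmFit, eBayes, two-sided, Benjamini-Hochberg over all features, threshold 0.05, 4 residual degrees of freedom). The fit with the replicate block had 2 residual degrees of freedom. Both fits were run on simulated data with independent noise and no replicate effect. That checks the code, not the power or error rate in these data. For a gene too dim in a whole group, "at least N-fold" compares the other group's mean with a floor, which on each array is the dimmest signal called well above background or the gene's own signal if brighter.

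Deviations of same-numbered arrays correlated at 0.647, 0.589 and 0.270, all above 0.1, so the numbers were taken as pairs, from the data; p45-/- replicate 3 correlated more with WT replicate 2 (0.616) than with its own number. Members, lists and motifs were chosen with earlier results of these data known. Named are the members, the 3 genes of each other list with the smallest unadjusted p, paralogues set beside a member, and the 5 most alike, except that 1 gene so chosen is not reported here. Dmtn, Ermap, Add1 and Add3 fall outside this rule. So do the globin genes, the lower erythroid markers and the mast cell genes. The files hold no mean spot signal, so the normexp alternative (offset 50) used the median. No spot was saturated, and the number of arrays limits the precision.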

Additional observations from a re-analysis of the deposited data

How the results depend on the processing

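No member passed the test without a block under any scaling, filter, probe rule or variance prior tried, within slide 2, or without any 1 array, and with array weights 1 did, Tmod1 (adjusted p = 0.00899). The count of all genes past the threshold was 0 as reported, 5 with the replicate block, 10 with median scaling, 505 with array weights, which gave p45-/- replicate 1 a weight of 0.0979, and 1 with a trended, robust prior. Leaving out 1 array gave 0 to 1 genes, and leaving out replicate 1 of both groups gave 18, with 0 members in each case. At the probe level 1 member probe passed with array weights. Combinations of the replicate block with other settings were chosen after seeing the data. They gave 1590 genes, 3 members (Tmod1, Rhag and Rhd) and 4 member probes with median scaling, 285, 2 and 2 with normexp, 286, 2 and 3 with the trended, robust prior, and 0 of each with quantile normalization. The 2 members were Tmod1 and Rhd in both cases. The calls therefore depended on the scaling and the prior, and the cause was not tested.

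The members' median difference was 1.76 as reported, 1.04 with normexp with or without the block, and 1.34 to 2.11 without 1 array. The sign turned for Epb41 with median scaling (-0.37), without p45-/- replicate 2 (-0.31) and without WT replicate 1 (-0.24), and for Sptb without p45-/- replicate 2 (-0.029) and without WT replicate 1 (-0.31). Without 1 array Sptb ranged up to 1.46 and Epb41 up to 0.70, both without p45-/- replicate 1. Leaving out 1 array leaves its replicate number in 1 group only. Without replicate 1 of both groups Sptb was at 0.57 and Epb41 at 0.32. The other 6 members kept their sign under every setting run, though without 1 array Slc4a1 ranged from 0.29 to 2.87, Rhag from 1.39 to 3.17, Rhd from 1.63 to 3.26, Ank1 from 0.97 to 2.03, Epb42 from 1.30 to 2.39 and Tmod1 from 1.95 to 2.19. Epb42 and Rhag had no value when probes had to be above background on all 6 arrays. On slide 1, with 1 array per group, there was no test.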
